A study of Mus musculus with 22 samples.

Results

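Hoxb1, Hoxb2, Hoxb3 and Hoxb4, which form the anterior end of the mouse HoxB cluster, and Hoxb3os, a transcript of the opposite strand that lies across Hoxb3 and Hoxb2, were followed in RNA-seq of mouse embryonic stem cells. The 5 genes were taken by symbol, as 5 of the 52535 symbols in each count table, and all 5 were among the 16765 genes with enough reads to be tested. E14, the line used, is an established mouse embryonic stem cell line. In all 12 libraries LIF and the MEK and GSK inhibitors of the stem cell medium had been withdrawn and 2 µM retinoic acid had been added for 1 day, so no untreated cells enter any comparison. The 4 genotypes, with 3 libraries each, were unedited cells (WT), cells without E1 (E1-KO), cells without E2 (E2-KO) and a genotype labelled D-KO. The series names E1 and E2 as HoxB enhancers, and D-KO, which is not spelled out, is read here as the deletion of both. With positions and sizes of the deletions not given in the sources used here, no value checks the deletions themselves. Libraries of a genotype are called biological replicates, with no word on separate clones or cultures, so p-values measure only the spread between these samples. Chromosome conformation and ChIP samples were not analysed here.

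Hox genes encode homeodomain transcription factors that give cells of the hindbrain and trunk their position along the body axis. Within a cluster, genes at the anterior end respond first and most readily to retinoic acid, which acts through receptors bound at DNA elements in and around the cluster. HOXB1 specifies hindbrain rhombomere 4 and, together with PBX proteins, binds an element of its own gene and keeps it active. HOXB2 acts downstream of HOXB1 and of EGR2 in neighbouring rhombomeres, while HOXB3 and HOXB4 mark the hindbrain behind them, and HOXB4 is also known in blood stem cells.

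All 5 genes lie on chromosome 11 of GRCm38. In GENCODE M21, Hoxb4 runs from 96318267 to 96321638, Hoxb3 from 96323326 to 96347930, Hoxb2 from 96350525 to 96354012 and Hoxb1 from 96365752 to 96368256, all on the plus strand. Hoxb3os runs on the minus strand from 96343072 to 96354691. The 250 bases upstream of the RefSeq starts of Hoxb1 and Hoxb4 are given here, 5′ to 3′ on the plus strand, because these are the outermost coding genes of the group and the ratio of their reads is compared between genotypes. They are from RefSeq's GRCm38.p6 annotation, in which 3 of the 5 genes had an entry (Hoxb1, Hoxb4 and Hoxb3os). Capitals mark matches to the searched motifs.
Hoxb1, chr11:96365508-96365757, plus strand: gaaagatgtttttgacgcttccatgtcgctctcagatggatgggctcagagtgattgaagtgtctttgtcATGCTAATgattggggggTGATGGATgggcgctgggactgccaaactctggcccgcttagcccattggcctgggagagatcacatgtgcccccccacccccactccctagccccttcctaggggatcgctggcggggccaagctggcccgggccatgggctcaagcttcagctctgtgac
Hoxb4, chr11:96318017-96318266, plus strand: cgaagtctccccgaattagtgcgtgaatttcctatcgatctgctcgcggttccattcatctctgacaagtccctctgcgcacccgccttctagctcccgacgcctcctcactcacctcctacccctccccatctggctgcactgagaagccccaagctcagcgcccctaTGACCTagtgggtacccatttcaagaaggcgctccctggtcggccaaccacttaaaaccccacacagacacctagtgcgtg
Searched on both strands were TGATNNAT (a joint Hox and Pbx motif), ATGCNAAT (like the octamer of POU factors), AGGTCA (the core letters of retinoic acid receptor elements) and TGACAG (Meis and Prep factors). The motifs do not overlap in these matches. The Hoxb1 window holds ATGCTAAT, its first base 180 bases before the start, and TGATGGAT, 162 bases before it. The Hoxb4 window holds TGACCT, the reverse complement of AGGTCA, 81 bases before the start, and neither window holds TGACAG. Of 32851 RefSeq windows of that length, 7.68% hold TGATNNAT, 2.86% ATGCNAAT, 14.0% AGGTCA and 15.9% TGACAG. Such a match is a description of letters and not a binding site.

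Libraries held 9101547 to 13007735 reads counted to genes, and 1 count equalled 0.0742 to 0.119 CPM, the level in relation to library size after TMM scaling. WT libraries stood far apart, with a chi-square per gene of 39.0 to 77.9 between pairs against 2.21 to 3.99 between pairs within the KO genotypes. The common dispersion over genes, which measures spread beyond counting error, was 0.0997 among WT and 0.00333 among KO libraries, and 0.0264 over all 12 libraries. The mitochondrial share of counts was 3.50%, 1.94% and 5.88% for WT replicates 1, 2 and 3 and 1.36% to 2.69% for KO libraries. Stem cell markers were detected in every genotype (8 of 8), and of 5 fibroblast feeder markers Dcn (at most 0.101 CPM) and Postn (at most 0.284) were at or near 0. The other feeder markers were present at low levels, Col1a1 at 1.21 to 3.78 CPM, Thy1 at 0.926 to 5.53 and Col1a2 at up to 0.964, and their part in the results was not tested. The Y-linked gene Ddx3y had 633, 566 and 475 counts in WT and 0 in all 9 KO libraries, and Eif2s3y had 317, 235 and 249 against 0. The state of the Y chromosome thus cannot be told apart from the deletions in any comparison with WT, and its part in the results was not tested.

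All 5 genes fell in each KO genotype. Together they had 1252, 2244 and 611 counts in WT replicates 1, 2 and 3 and 11 to 132 in a KO library. Their summed level was 128.8, 166.4 and 72.6 CPM for WT, 2.72 to 4.27 for E1-KO, 11.5 to 12.5 for E2-KO and 1.11 to 2.24 for D-KO. The genotypes did not overlap in this sum. In bulk RNA, fewer cells expressing a gene and less RNA per cell cannot be told apart. WT replicate 3, with the lowest sum, also had the largest mitochondrial share.

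Hoxb1, nearest to the end of the cluster that responds first, stood at 17.2, 31.4 and 20.1 CPM in WT. It stood at 0.284, 0.186 and 0.403 for E1-KO, at 0.322, 1.15 and 1.04 for E2-KO and at 0.303, 0.405 and 0.877 for D-KO. Every KO library was below every WT library, while E1-KO and D-KO overlapped E2-KO. The means were 22.9 ± 7.50 (SD, n = 3) for WT, 0.291 ± 0.109 for E1-KO, 0.838 ± 0.450 for E2-KO and 0.528 ± 0.306 for D-KO. Hoxb1 therefore kept 1.27%, 3.66% and 2.31% of its WT level. The log2 fold changes by edgeR were -6.31 ± 0.59 (SE, adjusted p 3.25e-07) for E1-KO, -4.76 ± 0.41 (1.44e-06) for E2-KO and -5.43 ± 0.47 (9.69e-07) for D-KO.

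Hoxb2 stood at 32.7, 37.1 and 13.9 CPM in WT. It stood at 1.23, 0.930 and 0.605 for E1-KO, at 1.501, 1.77 and 2.85 for E2-KO and at 0.404, 0.607 and 0.390 for D-KO. WT replicate 3 was low among WT and still far above each KO library, the E2-KO libraries lay above those of E1-KO, and the highest D-KO library lay just above the lowest of E1-KO. The level was 27.9 ± 12.3 (SD, n = 3) for WT, of which 3.31% was left for E1-KO, 7.31% for E2-KO and 1.67% for D-KO. The log2 fold changes by edgeR were -4.92 ± 0.43 (SE, adjusted p 1.21e-06), -3.77 ± 0.36 (5.60e-06) and -5.91 ± 0.55 (1.06e-06) in that order of genotypes.

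Hoxb3, the longest of the coding members and the lowest in reads, had 96, 218 and 35 counts in WT, or 9.88, 16.2 and 4.16 CPM. It had 2, 0 and 0 counts for E1-KO, 14, 18 and 12 for E2-KO and 1, 0 and 3 for D-KO. The E2-KO libraries, at 1.14 to 1.88 CPM, were above all libraries of E1-KO and D-KO, which overlapped each other near the level of a few reads. Hoxb3 kept 15.0% of its WT level in E2-KO, the largest share of the 5 genes there, and 1.30% in D-KO. For E1-KO the 2 counts against 349 gave a log2 ratio of totals of -7.43, with a 95% interval of -10.48 to -5.56 that covers counting error only. By edgeR the log2 fold changes were -7.31 ± 1.44 (SE, adjusted p 1.45e-05) for E1-KO, -2.77 ± 0.50 (0.000901) for E2-KO and -6.26 ± 1.06 (3.86e-05) for D-KO. Without E1-KO replicate 2 the Hoxb3 value for E1-KO was -6.70, and without D-KO replicate 3 the value for D-KO was -7.65, and both stayed called.

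Hoxb4 stood at 31.5, 38.6 and 17.3 CPM in WT. It stood at 1.23, 2.05 and 1.01 for E1-KO, at 4.40, 3.65 and 3.70 for E2-KO and at 0.101, 0.405 and 0.0974 for D-KO. Hoxb4 was the gene of the group whose 4 genotypes did not overlap at all, in the order WT, E2-KO, E1-KO, D-KO. Any 1 pair of genotypes was separated in that direction for 16.2% to 27.1% of tested genes. The share of genes with all 4 genotypes separated was not computed. Of the WT level of 29.1 ± 10.8 (SD, n = 3), E1-KO kept 4.91%, E2-KO 13.4% and D-KO 0.690%. The log2 fold changes by edgeR were -4.35 ± 0.35 (SE, adjusted p 9.20e-07), -2.90 ± 0.30 (1.17e-05) and -7.20 ± 0.71 (2.89e-07). The D-KO value rested on 6 counts against 972 and was -8.21 without D-KO replicate 2, which holds 4 of them.

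Hoxb3os, the opposite-strand transcript, stood at 37.6, 43.2 and 17.1 CPM in WT. It stood at 1.33, 0.465 and 0.706 for E1-KO, at 3.86, 3.03 and 3.79 for E2-KO and at 0.202, 0.202 and 0.584 for D-KO. E2-KO libraries lay above those of E1-KO and D-KO, and the last pair of genotypes overlapped. Hoxb3os kept 2.55%, 10.9% and 1.01% of its WT level of 32.6 ± 13.7 (SD, n = 3). Its log2 fold changes by edgeR were -5.30 ± 0.46 (SE, adjusted p 7.37e-07), -3.20 ± 0.33 (1.28e-05) and -6.62 ± 0.64 (6.64e-07). Without D-KO replicate 3 the Hoxb3os value for D-KO was -7.34.

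**Figure D1:**
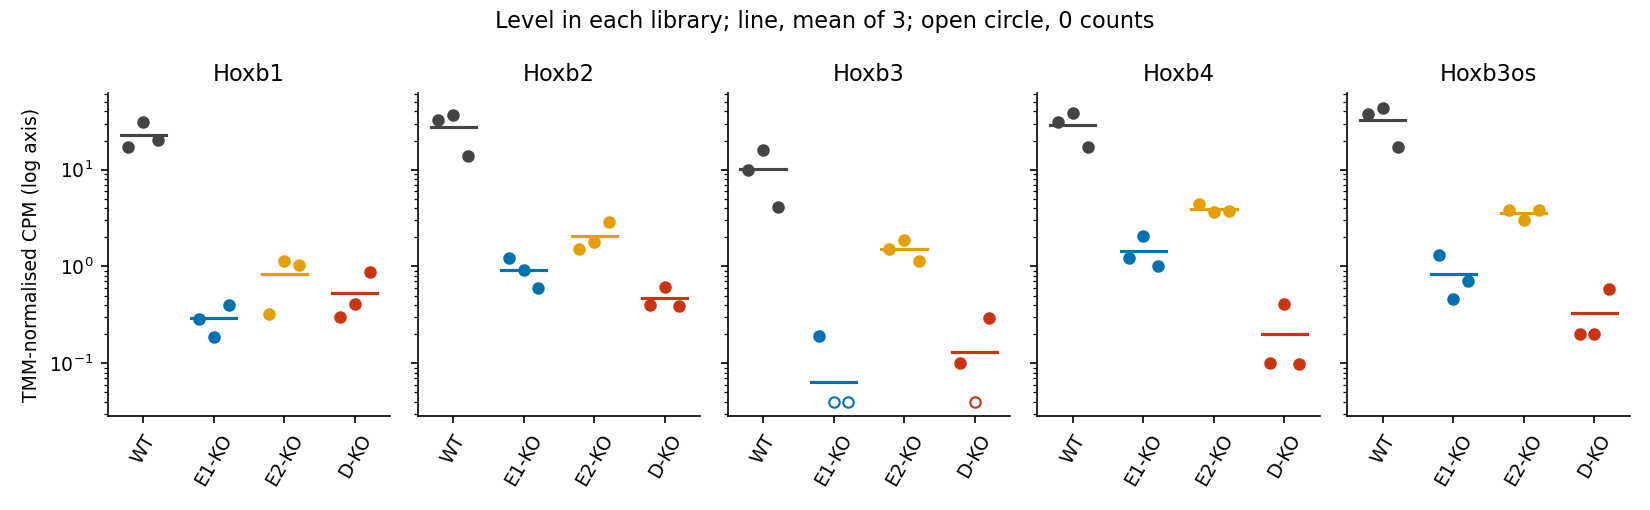
TMM-normalised CPM (log axis) of each member in each of the 12 libraries, with 1 point per library, a line at the mean of 3 and open circles for libraries with 0 counts. All KO points lie below all WT points of the same gene, and Hoxb4 shows 4 separate levels, from 17.3 to 38.6 CPM in WT to 0.0974 to 0.405 in D-KO.

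Read against the background, 5 of 5 members fell in E1-KO, where 34.2% of all tested genes were called, 18.5% lower and 15.7% higher. In E2-KO 5 of 5 fell, against 35.3% called, 18.6% lower and 16.7% higher, and in D-KO 5 of 5, against 22.8% called, 12.2% lower and 10.6% higher. All 3 KO libraries lay below all 3 WT libraries for each member in each comparison, which was so for 20.1%, 19.7% and 16.2% of tested genes. The median log2 fold change of the 5 was -5.30 for E1-KO, -3.20 for E2-KO and -6.26 for D-KO, beside -0.01, 0.00 and -0.02 over all tested genes. The 3 comparisons share the WT libraries. With WT replicate 2, the WT library with the lowest mitochondrial share, as the only WT library, the log2 fold changes were -7.97 to -4.73 for E1-KO, -5.21 to -3.30 for E2-KO and -7.59 to -5.88 for D-KO. These are given as values with no call, since that fit takes its spread from KO libraries alone and assumes that the lone WT library varies as little as they do. That setting was added after the values were seen.

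**Figure D2:**
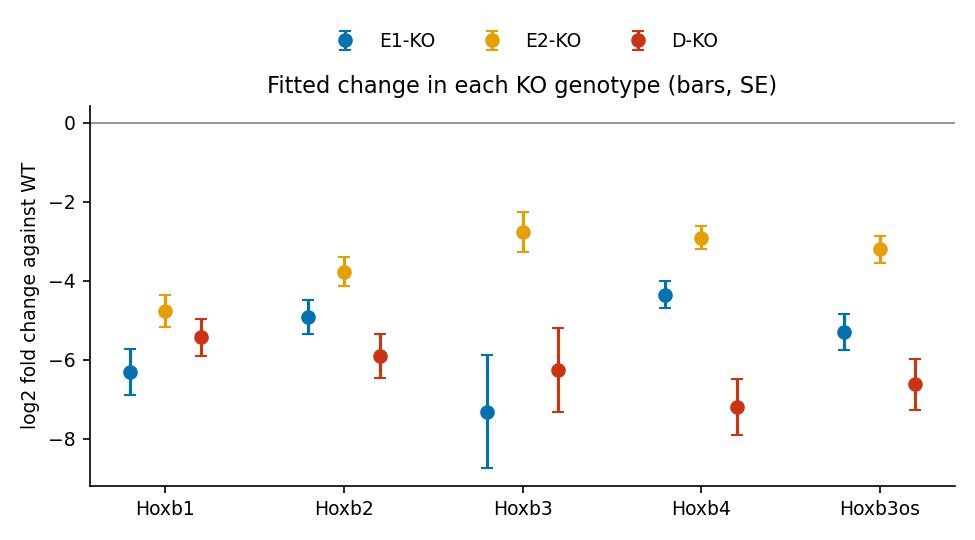
Fitted log2 fold change of each member against WT in E1-KO, E2-KO and D-KO, with bars of 1 SE. Hoxb1 has its largest fall in E1-KO (-6.31) and Hoxb4 its largest in D-KO (-7.20), while E2-KO has the smallest fall of the 3 genotypes for each gene, from -4.76 for Hoxb1 to -2.77 for Hoxb3.

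Markers of other states moved along with the genotypes, and their part in the members' values was not tested. Over all tested genes, 18.5%, 18.6% and 12.2% fell and 15.7%, 16.7% and 10.6% rose in E1-KO, E2-KO and D-KO. Of 8 stem cell markers, 7, 7 and 5 rose with E1, E2 and both deleted, and their summed level was 2380 to 4760 CPM for WT, 6380 to 6740 for E1-KO, 5920 to 6430 for E2-KO and 4830 to 5010 for D-KO. Of 6 primitive endoderm markers, 6, 6 and 5 fell, with sums of 120 to 129, 26.5 to 27.8, 57.9 to 58.2 and 67.6 to 70.3 CPM. Of 8 retinoic acid response genes, 4 fell and 1 rose in each KO genotype. The retinoic acid sums were 427 to 741 CPM for WT, 366 to 376 for E1-KO, 467 to 497 for E2-KO and 546 to 589 for D-KO. E2-KO and D-KO were thus inside the WT range and E1-KO below it. Stra8 gave the most reads of this list (31105 counts over all libraries), so the sum does not show single genes. In D-KO Stra6 changed by -1.27 ± 0.16 and Tgm2 by 0.88 ± 0.17 (SE) on the log2 scale. The 4 early neural markers summed to 13.9 to 24.5 CPM for WT, 12.6 to 20.4 for E1-KO, 14.9 to 16.5 for E2-KO and 21.5 to 30.5 for D-KO. The 4 markers of primitive streak and mesoderm summed to 25.9 to 37.9 CPM for WT, 23.0 to 28.7 for E1-KO, 22.4 to 31.2 for E2-KO and 19.0 to 21.5 for D-KO, so that D-KO lay wholly below WT and the single deletions overlapped it. Of 3 tested early neural markers 1 fell in each KO genotype and another rose in E1-KO and D-KO. Of 2 tested streak markers 1 fell in D-KO. The 5 fibroblast feeder markers summed to 3.70 to 8.15 CPM, and of 2 tested 1 rose in E1-KO and in E2-KO.

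Whether reads on bases shared by Hoxb3os and its neighbours were counted to either gene or to neither is not known. The sources used here do not give the strand setting of the counting. Of its 4201 exon bases, 53.56% lie on exons of Hoxb3 and 22.69% on exons of Hoxb2 on the opposite strand. Seen from the coding genes, 52.93% of the exon bases of Hoxb3 and 27.32% of those of Hoxb2 are shared with Hoxb3os, and Hoxb1 and Hoxb4 share none. Multiplying the shared bases by the read density of Hoxb3 and Hoxb2 gave fewer reads than Hoxb3os had in each library. Observed over computed reads were 2.65, 2.31 and 2.85 for WT, 1.83 to 4.27 for E1-KO, 2.05 to 3.20 for E2-KO and 1.22 to 2.24 for D-KO. These ratios do not measure reads carried over from Hoxb3 or Hoxb2. HTSeq set aside ambiguous reads (2.14% to 2.62% of counted reads), and whether reads on the shared bases were among them is not known. Values of Hoxb3, Hoxb2 and Hoxb3os are therefore uncertain as values of single strands, and those of Hoxb1 and Hoxb4 are free of this overlap.

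Per kb of exon, the order of levels in WT was Hoxb4 (11.4 ± 4.21 CPM per kb, SD, n = 3), Hoxb1 (9.85 ± 3.23), Hoxb2 (7.999 ± 3.53), Hoxb3os (7.77 ± 3.27) and Hoxb3 (2.37 ± 1.41). The first 4 neighbours in this order differed by less than their spread, and Hoxb3 lay below by more than either SD. In E1-KO Hoxb4 led (0.557 ± 0.213), then Hoxb2 (0.264 ± 0.0900), Hoxb3os (0.198 ± 0.106), Hoxb1 (0.125 ± 0.0469) and Hoxb3 (0.0149 ± 0.0258). The gaps below Hoxb4 and above Hoxb3 were larger than the SDs and the middle 3 genes were within them. In E2-KO the order was Hoxb4 (1.53 ± 0.162), Hoxb3os (0.847 ± 0.110), Hoxb2 (0.585 ± 0.204), Hoxb1 (0.361 ± 0.194) and Hoxb3 (0.354 ± 0.0869), and Hoxb1 and Hoxb3 were the neighbours within their spread. In D-KO the order was Hoxb1 (0.227 ± 0.132), Hoxb2 (0.134 ± 0.0349), Hoxb3os (0.0784 ± 0.0525), Hoxb4 (0.0783 ± 0.0687) and Hoxb3 (0.0308 ± 0.0349), where Hoxb2 and Hoxb3os were the neighbours that differed by more than the larger SD, by a small margin. By this measure Hoxb4, highest in WT, E1-KO and E2-KO, was near the low end in D-KO, while Hoxb3 was lowest in each genotype. Levels per kb divide by all exon bases, with those shared between Hoxb3os and Hoxb3 or Hoxb2 included. The places of these genes in each order therefore depend on the strand setting, which is not known, and the order of Hoxb1 and Hoxb4 does not.

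Pairs of KO genotypes were compared next, and the calls varied by member. D-KO minus E2-KO called 4 of 5 members lower, against 4.48% of tested genes called, 2.64% lower and 1.84% higher. Hoxb4 differed by -4.29 ± 0.73 (SE, edgeR adjusted p 0.000847), Hoxb3os by -3.42 ± 0.66 (0.00396), Hoxb3 by -3.50 ± 1.09 (0.0383) and Hoxb2 by -2.14 ± 0.59 (0.0406) on the log2 scale. The libraries of these 4 genes did not overlap between D-KO and E2-KO, as was so with D-KO below for 23.0% of tested genes. Hoxb1 overlapped and differed by -0.67 ± 0.57 (adjusted p 0.518). Leaving out any 1 of the 9 KO libraries ended the calls of Hoxb2 and Hoxb3, with an edgeR adjusted p of up to 0.153 for Hoxb2, as did the use of library totals in place of TMM for Hoxb2 (0.0507). With D-KO replicate 2 left out Hoxb4 differed by -5.30, and with D-KO replicate 3 left out Hoxb3os differed by -4.14 and Hoxb3 by -4.89. A fit to the 6 libraries of both genotypes called the same 4 genes, with edgeR adjusted p of 1.58e-08 to 0.000599, where 37.3% of genes were called and 18.3% called lower, and Hoxb1 was under its count filter.

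D-KO minus E1-KO called 1 of 5 members, against 15.9% of tested genes called, 7.52% lower and 8.43% higher. That gene was Hoxb4, at -2.85 ± 0.75 (SE, edgeR adjusted p 0.00916), with 1, 4 and 1 counts in D-KO against 13, 22 and 10 in E1-KO. No D-KO library of Hoxb4 reached the lowest E1-KO library, a separation found with D-KO below for 27.1% of tested genes. Hoxb4 differed by -3.87 without D-KO replicate 2. In a fit to the 6 libraries of both genotypes it was at -2.85 ± 0.73 (SE, edgeR adjusted p 9.50e-05), where 50.7% of genes were called and 25.0% called lower, and the other members were under its count filter. Hoxb2 at -0.99 ± 0.64 (edgeR adjusted p 0.298) and Hoxb3os at -1.33 ± 0.73 (0.213) did not pass the test. Hoxb1 was at 0.88 ± 0.70 (0.411), with 16 counts in D-KO and 9 in E1-KO. The counting interval of the Hoxb1 log2 ratio ran from -0.38 to 2.24. Hoxb3 had 4 counts against 2, with a log2 ratio of 1.05 and an interval of -1.75 to 4.52, so that a difference was not detectable at this depth.

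E1-KO minus E2-KO called 0 of 5 members with edgeR, against 0.596% of all tested genes (0.274% lower and 0.322% higher). At an unadjusted p below 0.05 it held 5 of 5 members, against 10.9% of tested genes. The values were -4.55 ± 1.47 for Hoxb3 (SE, edgeR adjusted p 0.0672), -2.10 ± 0.49 for Hoxb3os (0.0644), -1.55 ± 0.66 for Hoxb1 (0.375), -1.44 ± 0.38 for Hoxb4 (0.122) and -1.15 ± 0.49 for Hoxb2 (0.384), lower in E1-KO for each. Libraries of E1-KO and E2-KO did not overlap for 4 of 5 members, Hoxb1 being the exception, and E1-KO lay below for 19.0% of tested genes. Hoxb3, with 2 against 44 counts, had a log2 ratio of totals of -4.54 with a counting interval of -7.63 to -2.60. DESeq2 called 3 members, where it called 1.49% of all genes, and limma-voom 3, where it called 17.6% (Hoxb3, Hoxb4 and Hoxb3os in both). A fit to the 6 libraries of both genotypes called 4, where 21.4% of genes were called and 10.6% called lower. In that fit Hoxb3 was at -4.53 ± 1.20 (SE, edgeR adjusted p 1.87e-05), Hoxb3os at -2.08 ± 0.39 (1.98e-05), Hoxb4 at -1.43 ± 0.33 (0.000618) and Hoxb2 at -1.13 ± 0.42 (0.0408), and Hoxb1 was under its count filter. Leaving out WT replicate 2 or WT replicate 3 also brought the calls of Hoxb3, Hoxb4 and Hoxb3os, with adjusted p of 0.00225 to 0.0354, where 3.26% and 4.20% of genes were called.

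Whether deletion of 1 element had the same effect with and without the other was tested as an interaction on the log2 scale, D-KO minus E1-KO minus E2-KO plus WT. An interaction of 0 means that the share left in D-KO is the product of the shares left in both deletions of 1 element. It was positive for Hoxb1 at 5.64 ± 0.82 (SE, edgeR adjusted p 0.000178) and for Hoxb2 at 2.78 ± 0.74 (0.0141). These are 2 of 5 members called, against 35.2% of tested genes called and 18.1% called in the positive and 17.1% in the negative direction. The product of the shares left would have been 0.0466% of WT for Hoxb1, or 0.320 counts in D-KO, where 16 were counted (2.31%). For Hoxb2 it would have been 0.242%, or 2.03 counts, where 14 were counted. Hoxb1 stood at 5.06 without D-KO replicate 3, and without D-KO replicate 2 Hoxb2 stood at 2.54 and was no longer called (adjusted p 0.0624).

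Hoxb4 lay at the other end, with an interaction of 0.06 ± 0.81 (SE, edgeR adjusted p 0.964) and 6 counts in D-KO where the product gives 5.77. The sign of the Hoxb4 value was not stable, as it ran from -0.96 to 0.41 over the alternatives. Hoxb3 at 3.82 ± 1.81 (edgeR adjusted p 0.106) and Hoxb3os at 1.88 ± 0.80 (0.101) lay between and did not pass the test, with 4 and 10 counts in D-KO beside products of 0.284 and 2.73. DESeq2, limma-voom and a fit with no count filter called these too, for 4 of 5 members, as did the fit without WT replicate 3. Of all genes, 37.2%, 43.2%, 20.3% and 39.3% were called in those fits. The same contrast was positive and called for 6 of 6 primitive endoderm markers, beside 18.1% of all tested genes. It was negative and called for 7 of 8 stem cell markers, beside 17.1%. The part of these states in the members' values was not tested.

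**Figure D3:**
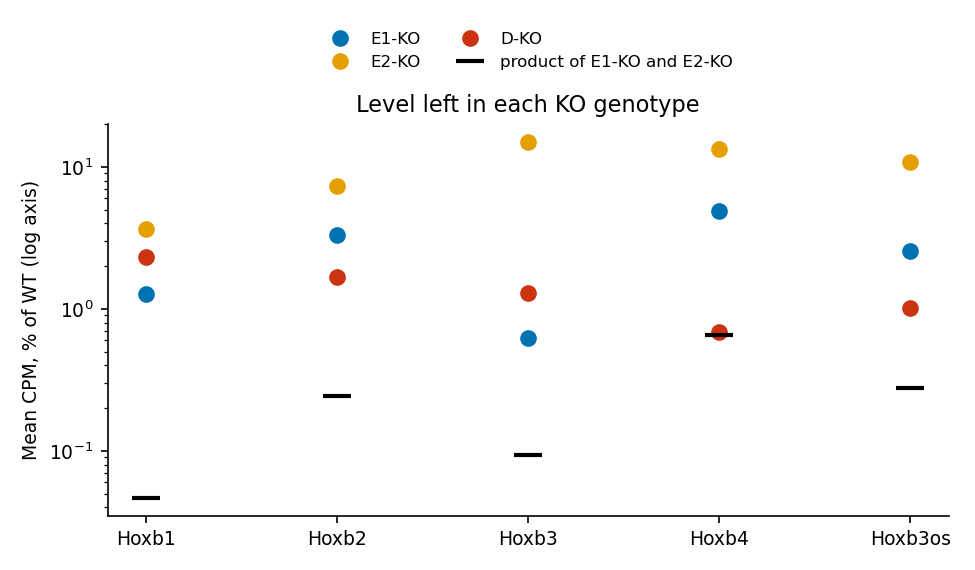
Mean CPM as a percent of WT (log axis) for each member in E1-KO, E2-KO and D-KO, with a black bar at the product of the shares left in E1-KO and E2-KO. For Hoxb1 the D-KO point (2.31%) is well above the bar (0.0466%), while for Hoxb4 the point (0.690%) and the bar (0.659%) nearly coincide.

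Hoxb4 took a larger share of the reads of the 4 coding members in E1-KO and E2-KO than in WT. It gave 32.2% of their 3015 counts for WT (exact Clopper-Pearson 95% interval 30.6 to 33.9), 52.9% of 85 for E1-KO (41.8 to 63.9), 46.9% of 245 for E2-KO (40.6 to 53.4) and 15.0% of 40 for D-KO (5.71 to 29.8). Hoxb1 gave 25.2% for WT (23.6 to 26.8), 10.6% for E1-KO (4.96 to 19.2), 10.2% for E2-KO (6.71 to 14.7) and 40.0% for D-KO (24.9 to 56.7). By library the Hoxb4 share was 31.3% to 34.5% for WT, 41.9% to 64.7% for E1-KO, 42.4% to 56.9% for E2-KO and 5.88% to 28.6% for D-KO, so that each KO genotype was apart from WT. The Hoxb1 share by library was 18.8% to 36.2% for WT and 4.17% to 13.6% for E2-KO, while the highest E1-KO library and the D-KO libraries (28.6% to 52.9%) overlapped WT. In the same order of genotypes Hoxb3 gave 11.6%, 2.35%, 18.0% and 10.0%, and Hoxb2 gave 31.0%, 34.1%, 24.9% and 35.0%. The intervals cover counting error only, and reads are not independent molecules.

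Within a library, the log2 ratio of Hoxb4 to Hoxb1 counts (0.5 added to each) does not depend on how libraries are scaled. It was 0.87, 0.30 and -0.21 for WT, 1.95, 3.17 and 1.22 for E1-KO, 3.57, 1.63 and 1.78 for E2-KO and -1.22, 0.00 and -2.66 for D-KO. All 6 libraries lacking 1 element were above all WT and all D-KO libraries, while D-KO overlapped WT. The means were 0.32 ± 0.54 (SD, n = 3) for WT, 2.11 ± 0.98 for E1-KO, 2.33 ± 1.08 for E2-KO and -1.30 ± 1.33 for D-KO. D-KO differed from E1-KO by -3.41 and from E2-KO by -3.62, and E1-KO from WT by 1.79 and E2-KO from WT by 2.01, each with an exact two-sided permutation p of 0.1 (adjusted p 0.15 over 6 pairs), the smallest that 3 against 3 libraries allow. D-KO differed from WT by -1.61 (exact permutation p 0.2, adjusted 0.24). E1-KO and E2-KO differed by -0.21 (exact permutation p 0.7, adjusted 0.7), less than either SD, and the sign turned when E1-KO replicate 3 (0.23) or E2-KO replicate 1 (0.41) was left out. No pair can reach 0.05 in this design, and the D-KO ratios rest on 1 to 9 counts of each gene.

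**Figure D4:**
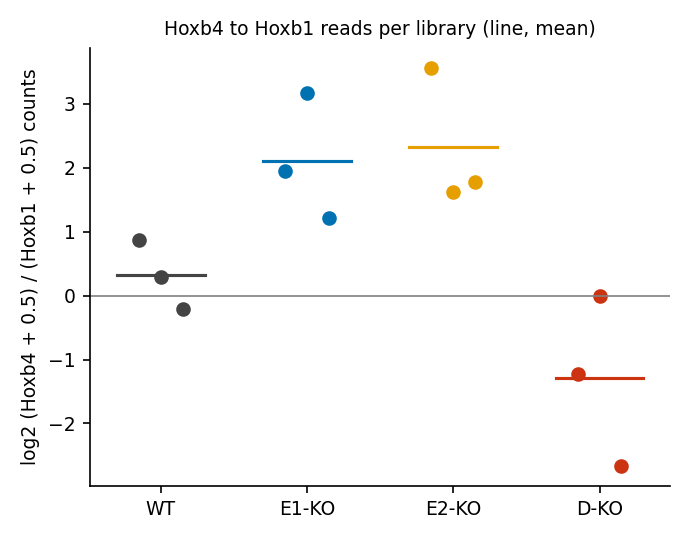
The log2 ratio of Hoxb4 to Hoxb1 counts in each library (0.5 added to each count), with a line at the mean of 3 libraries per genotype. The E1-KO and E2-KO points lie from 1.22 to 3.57, above the WT points (-0.21 to 0.87) and the D-KO points (-2.66 to 0.00).

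The other HoxB genes followed the members in direction. Of the 6, 5 (Hoxb5 to Hoxb9, without Hoxb13) fell in each KO genotype, beside 18.5%, 18.6% and 12.2% of all tested genes. The median log2 fold change of the 6 was -3.77 for E1-KO, -3.30 for E2-KO and -5.97 for D-KO, the last with 2 genes entered at their bound. Hoxb5, next to Hoxb4, kept 3.43% of its WT level in E1-KO and 8.56% in E2-KO. It had 0 counts in D-KO, which puts it at least 115-fold lower than in WT, against a floor of 3 counts over the group (0.0998 CPM). Hoxb6 had 0 counts there too and was at least 77.1-fold lower. Hoxb7 had 3 counts in D-KO against 160, a log2 ratio of -5.66 with a counting interval of -7.96 to -4.09. Hoxb8 kept 4.32%, 3.11% and 0.817% of its WT level, and Hoxb9 33.0%, 21.4% and 12.3%. Hoxb13, alone at the posterior end, was at 48.3%, 66.0% and 36.0% and was not called in any of the 3.

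Gene starts lie 15.23 kb (Hoxb2), 42.43 kb (Hoxb3) and 47.48 kb (Hoxb4) from that of Hoxb1, and 62.42 kb (Hoxb5) to 94.3 kb (Hoxb9) and 171.4 kb (Hoxb13) for the rest. From Hoxb1 to Hoxb6 each gene kept at most 15.0% in any KO genotype. The level left in E2-KO went from 3.66% at Hoxb1 through 7.31% at Hoxb2 to 15.0% at Hoxb3 and 13.4% at Hoxb4, and was lower again at Hoxb6 (3.87%). In D-KO it was 2.31% at Hoxb1 (16 counts), 1.67% at Hoxb2 (14), 1.30% at Hoxb3 (4) and 0.690% at Hoxb4 (6). Hoxb5 and Hoxb6 had 0 counts there, while Hoxb7 kept 1.96% (3 counts), Hoxb8 0.817% (4) and Hoxb9 12.3%. The counting intervals of the log2 ratio to WT overlapped between Hoxb1 (-6.31 to -4.79) and Hoxb4 (-8.72 to -6.14) in D-KO. E1-KO did not share this order, with 1.27%, 3.31%, 0.628% and 4.91% from Hoxb1 to Hoxb4. These orders along the chromosome are descriptions over 10 genes that share libraries, with no test.

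**Figure D5:**
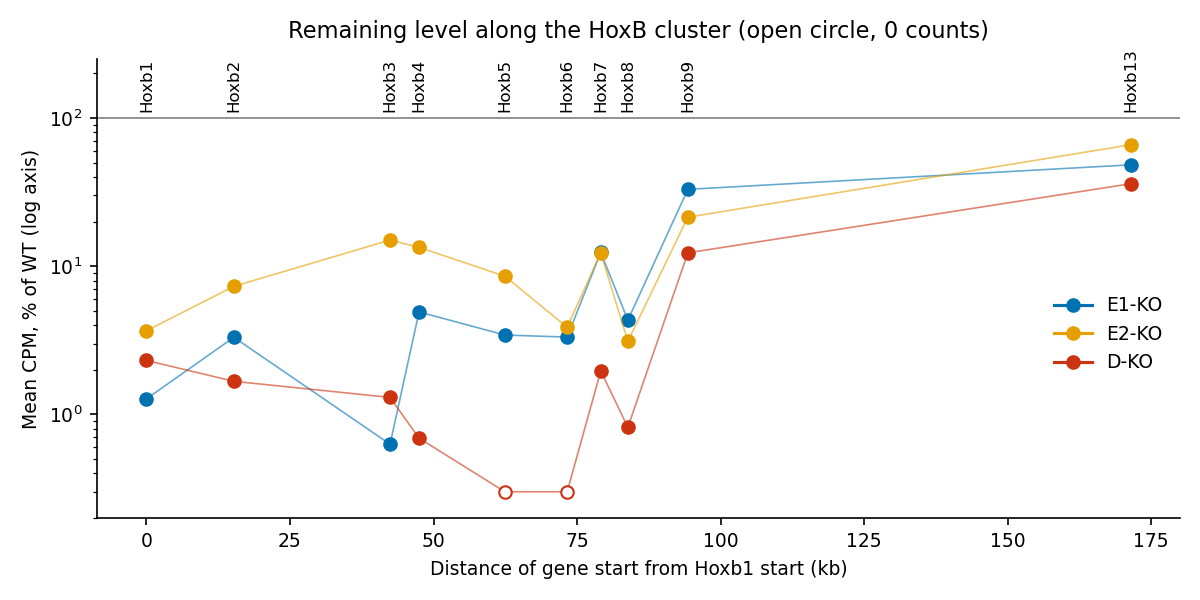
Mean CPM as a percent of WT (log axis) for the 10 coding HoxB genes against the distance of the gene start from that of Hoxb1 in kb, for E1-KO, E2-KO and D-KO, with open circles for 0 counts. The members lie at 0 to 47.48 kb and at 0.628% to 15.0% of WT, while Hoxb9 and Hoxb13 keep 12.3% to 66.0%.

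Among non-coding genes of the cluster, the opposite-strand transcript Hoxb5os fell in each KO genotype, at -4.61 ± 0.86 (SE, edgeR adjusted p 0.000377) for E1-KO, -4.04 ± 0.76 (0.000679) for E2-KO and at least 38.6-fold for D-KO, where it had 0 counts. Gm53, a long intergenic RNA between Hoxb13 and Hoxb9, rose with E1 deleted by 0.75 ± 0.24 (edgeR adjusted p 0.0281) and was at 0.39 ± 0.24 (0.225) for E2-KO and -0.65 ± 0.25 (0.0799) for D-KO. Of 3 tested non-coding genes, 1 thus fell in each KO genotype and 1 rose in E1-KO. The third, the Mir196a-1 locus, was not called in any of the 3. On the far side of Hoxb1, Skap1, which encodes an adaptor of T cell signalling, changed by -2.25 ± 0.75, -2.47 ± 0.80 and -3.07 ± 0.90 in the 3 genotypes (edgeR adjusted p 0.0258, 0.0195 and 0.0135), from a low 1.70 ± 0.704 CPM (SD, n = 3) in WT. Of the 4 neighbours tested, 2 fell and 1 rose in both E1-KO and E2-KO, and D-KO had 1 that fell. Beside both lists, 18.5%, 18.6% and 12.2% of all tested genes fell and 15.7%, 16.7% and 10.6% rose in the 3 genotypes.

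Genes of the same paralogue groups in other Hox clusters were described beside them. Of 8 paralogues 5 had enough reads. With E1, E2 and both deleted 3, 3 and 4 of these fell, beside 18.5%, 18.6% and 12.2% of all tested genes. Hoxa4, the HoxA counterpart of Hoxb4, changed by -2.04 ± 0.22, -1.59 ± 0.22 and -1.19 ± 0.22 (SE, edgeR adjusted p 1.62e-05, 0.000129 and 0.00142) in E1-KO, E2-KO and D-KO. Hoxc4 changed by -1.48 ± 0.36, -1.49 ± 0.37 and -3.55 ± 0.50 (0.00664, 0.00679 and 8.74e-05). Hoxa3 changed by -1.13 ± 0.19, -0.61 ± 0.18 and -1.13 ± 0.19 (0.000521, 0.0202 and 0.00077). The median over the 5 paralogues was -1.13, -0.61 and -1.13, beside -5.30, -3.20 and -6.26 for the members. The difference between these medians was not tested.

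TALE homeodomain proteins are the partners with which HOX proteins bind DNA. Of 9 TALE genes, 4 fell and 1 rose in E1-KO, 4 fell and 2 rose in E2-KO, and 3 fell and 1 rose in D-KO. Shares over all tested genes were 18.5%, 18.6% and 12.2% lower and 15.7%, 16.7% and 10.6% higher. Meis1 changed by -1.76 ± 0.22, -1.42 ± 0.21 and -1.17 ± 0.21 (SE, edgeR adjusted p 4.31e-05, 0.000249 and 0.00135), and Meis2 by -0.64 ± 0.11, -0.71 ± 0.11 and -0.50 ± 0.11 (0.000698, 0.000336 and 0.00541). For Meis1 and Meis2 D-KO had the smallest change of the 3 KO genotypes.

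Of 18 genes known to regulate anterior Hox genes, 14 were tested, of which 3 fell and 2 rose in E1-KO, 2 fell and 2 rose in E2-KO, and 1 fell and 1 rose in D-KO. Over all tested genes, 18.5%, 18.6% and 12.2% fell and 15.7%, 16.7% and 10.6% rose in these genotypes. The counts of this list lie near those shares. Gbx2, a factor of the anterior hindbrain, fell by 0.88 ± 0.19 in E1-KO (SE, edgeR adjusted p 0.00266). It was at -0.32 ± 0.18 (0.18) in E2-KO and 0.47 ± 0.18 (0.0735) in D-KO. Ctcf, whose protein holds chromatin loops, changed by -0.37 ± 0.12 (0.0249) for E1-KO, -0.50 ± 0.12 (0.00501) for E2-KO and was at -0.17 ± 0.12 (0.297) for D-KO. Of 22 hindbrain patterning genes, some of which are also in that list, 15 were tested, and 10, 6 and 7 fell while 1, 1 and 2 rose. The same shares over all tested genes stand beside these counts. The retinoic acid degrading enzymes Cyp26a1 (-2.05 ± 0.18, -1.42 ± 0.18 and -1.19 ± 0.18) and Cyp26b1 (-1.84 ± 0.16, -1.02 ± 0.16 and -0.52 ± 0.15) fell in all 3 genotypes, with edgeR adjusted p of at most 0.0262. The receptor gene Epha2 fell in all 3 as well, at -0.68 ± 0.12, -0.79 ± 0.12 and -1.41 ± 0.12 on the log2 scale (adjusted p at most 0.000851).

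The genes nearest in pattern to the mean profile of Hoxb1 to Hoxb4 were taken by the root mean square difference of centred log2(CPM + 0.5) over 12 libraries. Ranked were all tested genes except the members and symbols of predicted loci (Gm followed by digits, or names ending in Rik). The nearest were Hoxb5 (0.373), Grb10 (0.384), Hoxb6 (0.485), Hoxb8 (0.579) and Hoxb5os (0.705). Grb10, an imprinted gene for an adaptor of insulin and growth factor receptors, lies on the minus strand of chromosome 11 from 11930508 to 12038683, outside the HoxB cluster. It stood at 433 CPM for WT, 32.4 for E1-KO, 52.2 for E2-KO and 24.9 for D-KO, and was the ranked gene most like Hoxb1 (0.579), Hoxb2 (0.453) and Hoxb3 (0.616). Hoxb5 was the ranked gene most like Hoxb4 (0.567) and Hoxb3os (0.588). With Pearson correlation as the measure, or with 1 CPM added, 4 of these 5 genes were named again.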

How the data were processed

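Per the labels' protocols, Trizol was used to extract RNA. The deposited tables hold raw read counts per gene symbol. Per the submitters' processing notes, the authors used the mm10 build, HISAT2 2.1.0 for alignment and HTSeq 0.9.1 for the counts, and DESeq2 1.18.1 is named too. Which annotation and strand setting served was not given in the sources used here. HTSeq's reads without a gene, 1.11 to 1.20 per counted read for no feature, stayed out of library sizes and tests.

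Libraries were grouped by the genotype label. The main test was edgeR 4.0.16 under R 4.3.3, with filterByExpr on genotype (16765 genes), TMM, and a robust quasi-likelihood fit of all 12 libraries with a mean per genotype, Benjamini-Hochberg adjusted over all tested genes and called below 0.05, over 7 contrasts. Log2 fold changes are unshrunken coefficients with their standard errors, and errors of CPM are SDs over 3 libraries. The fit took the spread of each gene from all genotypes together. The common dispersion over all 12 libraries is under that among WT libraries and over that among KO libraries. Errors may therefore be too small against WT and too large between KO genotypes. The Hoxb4 to Hoxb1 ratio was tested by exact permutation of libraries. Folds against a group at 0 use a floor of 3 counts over the group. Intervals are 95% and cover counting error only.

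Gene positions and exon lengths are from GENCODE M21 and upstream sequences from RefSeq GRCm38.p6. Named beyond the members were, per list, up to 3 genes with the smallest adjusted p against WT, and the 5 genes nearest in pattern; Hoxb7, Hoxb6, Hoxb13 and the remaining HoxB genes are given as the rest of the cluster, outside that rule. A few genes of the lists are left unnamed here but stay in the counts. The members, lists and rules were chosen with earlier results of these data known. Alternatives were DESeq2 1.42.0, limma-voom (limma 3.58.1) with sample weights, other size factors, no count filter, the compared genotypes alone, a replicate block, leaving out each library and, added after the values were seen, a single WT library. The edgeR step was tested on simulated data with the same spread in all genotypes. The spread here differs between WT and KO libraries, so that simulation does not bear on the calls of the members.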

Additional observations from a re-analysis of the deposited data

Results flagged for a closer look

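For Hoxb1 and Hoxb2 the effect of deleting 1 element was called different with and without the other, by a test of the difference itself. The remaining members did not pass it in the main fit. The same test called 35.2% of all tested genes, 18.1% in the positive direction, so such calls were common. The contrast takes in WT libraries, whose common dispersion is above that over all 12 libraries, and KO libraries, whose dispersion is below it. Its standard errors and adjusted p are therefore uncertain. For Hoxb1 the interaction on the log2 scale was 5.64 ± 0.82 (SE, edgeR adjusted p 0.000178), with 3, 4 and 9 counts in the D-KO libraries. The product of both shares, which rests on 9 counts in E1-KO, gives 0.320 counts for the whole genotype. Any single read exceeds that, so the separate libraries add no support. For Hoxb2 the same test gave 2.78 ± 0.74 (adjusted p 0.0141), with 4, 6 and 4 counts in D-KO where the product gives 2.03 in all. At such counts few reads set the size of the interaction.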

How the results depend on the processing

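Against WT, 5 of 5 members were called in each KO genotype under each of 19 alternatives, and 284 of 284 recomputed fold changes kept direction and call (the setting with 1 WT library is not counted). Of all tested genes, 9.09% to 51.9% were called in those fits. Between E1-KO and E2-KO the number of members called was 0 in the main fit, where 0.596% of all tested genes were called. It was 3 with DESeq2 (1.49% of genes called), 3 with limma-voom (17.6%) and 3 with no count filter (1.3%). With the compared genotypes only it was 4 (21.4%), and on leaving out each library 0 to 3 (0.0929% to 4.20%). For the interaction the number went from 2 (35.2% of genes called) to 4 with DESeq2 (37.2%), 4 with limma-voom (43.2%) and 4 with no count filter (20.3%). On leaving out each library it was 1 to 4 (26.8% to 50.7%). For D-KO minus E2-KO it was 4 (4.48%), 3 with library totals (4.52%) and 2 to 4 on leaving out each library (1.32% to 16.8%). For D-KO minus E1-KO it stayed at 1, while 6.82% to 50.7% of genes were called. The Hoxb4 interaction of 0.06 turned to -0.091 with library totals, to -0.013 with the replicate block and ran from -0.96 (without D-KO replicate 2) to 0.41 when leaving out each library. It was -0.0084 without WT replicate 1, -0.20 without WT replicate 2, -0.05 without E1-KO replicate 1 and -0.14 without E1-KO replicate 3. Hoxb3 in D-KO minus E1-KO ran from -0.34 (without D-KO replicate 3) to 1.62 on leaving out each library. The Hoxb4 to Hoxb1 ratio between E1-KO and E2-KO turned from -0.21 to 0.23 without E1-KO replicate 3 and to 0.41 without E2-KO replicate 1, in a range from -0.74 to 0.41. The cause of these changes was not tested.

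Same-numbered libraries of different genotypes deviated together with correlations of -0.09 to 0.09, and a library did not always correlate best with its own number. The main fit therefore did not pair samples by number. Given the wide spread among WT libraries and the small one among KO libraries, this check cannot exclude a shared batch. With the replicate block 5, 5 and 5 members were called against WT, 1 in D-KO minus E1-KO, 4 in D-KO minus E2-KO, 0 in E1-KO minus E2-KO and 2 in the interaction, as without it. Shares of tested genes called there were, in that order, 32.3%, 33.3%, 20.7%, 13.8%, 3.47%, 0.424% and 33.5%. Permuting the Hoxb4 to Hoxb1 ratio within the block cannot go below a p of 0.25.

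Over all genes, the number called ranged from 2552 to 8753 around 5739 for E1-KO against WT, 2535 to 8887 around 5919 for E2-KO and 1438 to 7006 around 3824 for D-KO. It ranged from 1174 to 8025 around 2674 for D-KO minus E1-KO, 227 to 5877 around 751 for D-KO minus E2-KO, 16 to 3377 around 100 for E1-KO minus E2-KO and 4621 to 8673 around 5909 for the interaction. Hoxb3 without E1-KO replicate 1 has 0 counts in E1-KO and gives no fold. Depth limits the KO levels, where a member in D-KO rests on 4 to 16 counts.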

Other observations

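The interaction contrast that was positive for Hoxb1 and Hoxb2 was also called positive for 8 of 15 tested hindbrain patterning genes, beside 18.1% of all tested genes. It was called positive for 4 and negative for 1 of 9 TALE cofactor genes. In D-KO minus E1-KO, 6 of 15 hindbrain patterning genes and 5 of 6 primitive endoderm markers were higher, beside 8.43% of all tested genes. Hoxb4 was lower there and the other members did not pass the test.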
